A study of Mus musculus with 2 samples.

Results

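The genes described here carry MHC class I presentation in the mouse. The 7 members, chosen by gene symbol among the 27998 genes of the count matrices, were B2m (the invariant light chain), H2-K1 and H2-D1 (the classical heavy chains), Tap1 and Tap2 (the peptide transporter), Tapbp (tapasin, which holds the transporter to the heavy chain) and Nlrc5 (a transcriptional coactivator of class I genes). Their transcripts were counted by single-cell RNA sequencing of pancreatic islet cells from wild-type (WT) mice and from mice homozygous for a deletion of the ghrelin gene (GKO). Both groups were 8-week-old, chow-fed C57BL/6N littermates. For each genotype, islets of 4 mice were pooled before dispersion, live single cells were sorted, and 1 library was made, so that the genotype and the library cannot be told apart and no difference between genotypes was tested.

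MHC class I molecules display peptides of the cell's own proteins to CD8+ T cells. The proteasome cuts the peptides, the transporter carries them into the endoplasmic reticulum, and tapasin and chaperones load them onto a heavy chain that is paired with β2-microglobulin. Nearly all nucleated cells make these proteins, in larger amounts after exposure to interferon, and the class I display of β cells is well known as the target of CD8+ T cells in type 1 diabetes.

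B2m lay on chromosome 2 (122147686 to 122153083, plus strand) and Nlrc5 on chromosome 8 (94434356 to 94527272, plus strand) of GENCODE vM21, the annotation of the mm10 assembly used for the counts. The other 5 members lay within 1352 kb of chromosome 17, in and beside the H2 complex. All 7 were annotated as protein coding. RefSeq promoters of the GRCm38.p6 build were at hand for 5 members, B2m, H2-K1, H2-D1, Tap1 and Tapbp. The 250 bases before the RefSeq start are shown for the 3 members that form the class I molecule itself, and for Tap1, which had the highest ratio between libraries in Plvap+ barcodes. They come from chr2:122147437-122147686 (plus strand), chr17:34000348-34000597 (minus strand, the first of 2 entries), chr17:35262844-35263093 (plus strand, overlapping the longer GENCODE model of the gene) and chr17:34187306-34187555 (plus strand). Capitals mark letters that were searched on both strands, namely AANNGAAA (the core bound by interferon regulatory factors), GGGNNTTCC with or without 1 more T (written here for κB sites), TGACG (the core of the X2 box) and ATTGG (the Y box).
B2m: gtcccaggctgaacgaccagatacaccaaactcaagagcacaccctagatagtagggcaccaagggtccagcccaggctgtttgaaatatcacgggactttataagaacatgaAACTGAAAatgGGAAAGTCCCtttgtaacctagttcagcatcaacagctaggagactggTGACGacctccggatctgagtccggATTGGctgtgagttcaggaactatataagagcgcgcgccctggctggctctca
H2-K1: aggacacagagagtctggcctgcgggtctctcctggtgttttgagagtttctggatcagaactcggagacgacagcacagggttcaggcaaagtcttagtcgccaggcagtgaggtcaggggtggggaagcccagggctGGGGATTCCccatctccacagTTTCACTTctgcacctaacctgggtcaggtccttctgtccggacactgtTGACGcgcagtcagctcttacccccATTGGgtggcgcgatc
H2-D1: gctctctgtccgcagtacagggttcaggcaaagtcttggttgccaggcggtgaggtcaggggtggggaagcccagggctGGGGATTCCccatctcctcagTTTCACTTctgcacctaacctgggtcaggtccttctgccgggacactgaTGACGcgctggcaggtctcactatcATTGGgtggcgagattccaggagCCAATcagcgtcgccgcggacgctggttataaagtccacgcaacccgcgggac
Tap1: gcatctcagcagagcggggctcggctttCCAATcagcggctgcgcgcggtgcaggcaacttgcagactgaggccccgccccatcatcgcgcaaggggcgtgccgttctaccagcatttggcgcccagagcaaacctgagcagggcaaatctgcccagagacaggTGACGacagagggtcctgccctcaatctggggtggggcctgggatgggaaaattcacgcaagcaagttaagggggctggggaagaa
Of 32841 promoter windows in the RefSeq table, 21.3% held AANNGAAA, 5.99% held either κB spelling, 17.8% held TGACG and 33.9% held ATTGG. B2m, H2-K1 and H2-D1 each held all 4, with AANNGAAA starting 137, 90 and 150 bases before the start. TGACG followed by ATTGG on the same strand after 10 to 40 bases, the order of the X2 and Y boxes in class I promoters, stood in these 3 windows and in 0.825% of all windows. The Tap1 window held TGACG and an ATTGG on the other strand, without that order, and the Tapbp window held ATTGG alone among the letters searched.

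The matrices held 7792 barcodes and 158067110 unique molecular identifiers (UMIs, each 1 captured transcript) in the WT library, and 7289 barcodes and 103511757 UMIs in the GKO library. Kept were 7100 and 6346 barcodes, those that had at least 500 genes and no more than 10% of UMIs from mitochondrial genes, with medians of 15412 and 11404 UMIs. Barcodes were classed as insulin-led, Gcg-led, Sst-led or Ppy-led where that hormone gave the largest share and at least 10% of the UMIs. Among the others, at least 3 UMIs of Plvap (endothelial), Dcn (stromal) or C1qa (macrophage), and of none of the other 2, made a Plvap+, Dcn+ or C1qa+ barcode. The WT and GKO libraries held 2265 and 872 insulin-led, 1048 and 1397 Gcg-led, 1414 and 1003 Sst-led, 717 and 669 Ppy-led, 582 and 436 Plvap+, 263 and 676 Dcn+, and 233 and 484 C1qa+ barcodes, and 578 and 809 stayed unnamed. Marker lists were summed as UMIs per 1000000 UMIs of the class (CPM), WT and then GKO. Endothelial markers summed to 17875 and 18442 CPM in Plvap+, stromal ones to 34650 and 35038 in Dcn+, and macrophage ones to 12553 and 15120 in C1qa+ barcodes. Each list included the gene that set its class. In the Plvap+ class, stromal markers summed to 3690 and 3632 CPM, with 1 of 7 in at least 10% of barcodes. Macrophage markers summed to 14.2 and 15.1 CPM there, where the rule itself limited C1qa. Ghrl was at 276 CPM in the WT library and 2.71 in the GKO library, where 276 of its 280 UMIs came from 1 barcode. The libraries shared 18 barcode sequences.

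Levels are given as CPM of a class, with exact 95% Poisson intervals that cover counting error only. By CPM on all UMIs, the hormone-led classes held fewer class I transcripts than the nonendocrine ones, and the gap was much wider for B2m than for its heavy chain partners. In the WT library, B2m was at 20.9 CPM in insulin-led, 47.2 in Gcg-led, 38.9 in Sst-led and 30.8 in Ppy-led barcodes. It was at 1721 CPM (1685 to 1758) in Plvap+, 796 (761 to 832) in Dcn+ and 1822 (1772 to 1873) in C1qa+ barcodes. In the GKO library, the order of the 7 classes by CPM was the same, from 26.9 CPM in insulin-led to 2285 (2243 to 2327) in C1qa+ barcodes, and the interval of the C1qa+ class overlapped that of the Plvap+ class at 2232 (2184 to 2282). The order among hormone-led classes depended on the processing. Free RNA was estimated from the hormone transcripts foreign to a class, so that foreign hormone made by its own cells would count as well. The estimate was 8.72% in the GKO Sst-led class and 2.53% or less in the other GKO classes. With it subtracted, B2m of the GKO library was at 20.3 CPM in Sst-led and 23.8 in insulin-led barcodes. Without hormone transcripts (Ins1, Ins2, Gcg, Sst, Ppy, Pyy and Iapp) in the totals, Sst-led B2m was 0.919-fold (WT) and 0.936-fold (GKO) that of insulin-led barcodes.

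H2-K1 followed a flatter course. In the WT library it was at 219 CPM in insulin-led, 364 in Gcg-led, 487 in Sst-led and 336 in Ppy-led barcodes, against 1615 in Plvap+, 779 in Dcn+ and 1641 in C1qa+ barcodes. H2-D1 ran from 114 CPM in insulin-led to 349 in Sst-led barcodes, and from 839 in Dcn+ to 1916 in Plvap+ barcodes. The GKO library gave the same order of hormone-led classes for both heavy chains except that Gcg-led (346 CPM) and Ppy-led (331 CPM) lay closer together for H2-K1, with intervals of 337 to 354 and 322 to 341. Thus Sst-led barcodes had the highest heavy chain CPM of the 4 hormone-led classes in both libraries. Their B2m lay below that of the Gcg-led class in the WT library (intervals of 36.0 to 42.0 and 43.7 to 50.9). In the GKO library these intervals overlapped (44.7 to 53.0 and 48.7 to 55.3).

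The Plvap+ class exceeded the insulin-led class 82.5-fold (78.5 to 86.8) for B2m in the WT library, but 7.37-fold (7.18 to 7.56) for H2-K1 and 16.7-fold (16.3 to 17.2) for H2-D1. The GKO folds were 82.9, 10.1 and 21.0. Ins1, Ins2, Gcg, Sst and Ppy, without Pyy and Iapp, took 61.3% of the UMIs of WT insulin-led barcodes, which lowers every other gene's CPM there. With hormone transcripts left out of the totals, the WT folds were 28.6 for B2m, 2.56 for H2-K1 and 5.81 for H2-D1. Among hormone-led classes this choice decided some directions. H2-K1 of the Gcg-led class was 1.66-fold that of the insulin-led class on all UMIs and 0.82-fold without hormone transcripts in the WT library.

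**Figure D1:**
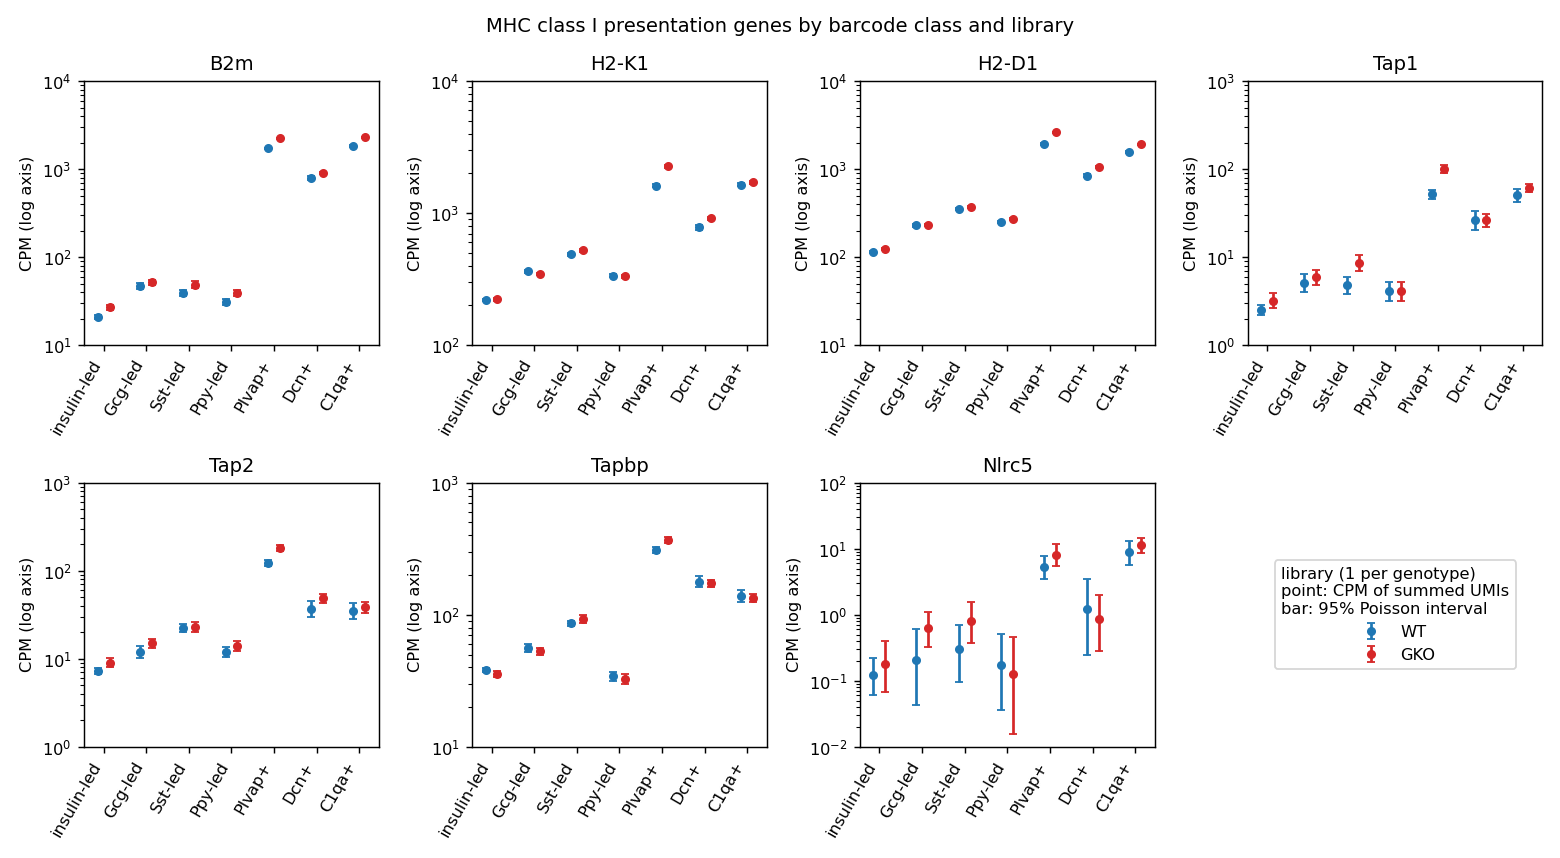
CPM (log axis) of each member in the 7 named barcode classes, with WT in blue, GKO in red and 95% Poisson intervals as bars. B2m is at 20.9 to 51.9 CPM in hormone-led classes and at 796 or more in the 3 nonendocrine classes, a wider step than that of H2-K1.

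By CPM on all UMIs, the loading genes were lower in hormone-led than in nonendocrine barcodes as well. Tapbp was at 38.1 CPM in insulin-led, 55.7 in Gcg-led, 86.0 in Sst-led and 34.3 in Ppy-led WT barcodes, against 308 in Plvap+, 178 in Dcn+ and 140 in C1qa+ barcodes. Tap2 was at 7.37 to 22.6 CPM in the hormone-led classes of the WT library and at 124 in the Plvap+ class, with Dcn+ (36.7) and C1qa+ (35.0) barcodes between them and within each other's intervals. Tap1 was at 2.54 to 5.10 CPM in the hormone-led classes and at 51.8 in Plvap+, 26.2 in Dcn+ and 50.3 in C1qa+ barcodes. The Plvap+ and C1qa+ classes could not be told apart for Tap1 in the WT library by their counting intervals, whereas for Tap2 the Plvap+ class was the higher. Tap1 of the GKO library was at 99.3 CPM (89.2 to 110.1) in Plvap+ and 60.8 (54.2 to 68.0) in C1qa+ barcodes, so that these intervals did not overlap. With hormone transcripts left out of the totals, WT levels were also set against insulin-led barcodes. Tapbp was 2.80-fold in Plvap+, 1.63-fold in Dcn+, 1.32-fold in C1qa+ and 1.11-fold in Sst-led barcodes. In the same order, Tap2 was 5.85-, 1.74-, 1.71- and 1.51-fold, and Tap1 7.08-, 3.61-, 7.13- and 0.941-fold. The gap between C1qa+ and Sst-led barcodes was thus small for Tapbp and Tap2.

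Nlrc5 was sparse. The WT library held 27 UMIs in Plvap+ and 25 in C1qa+ barcodes, at 5.38 (3.55 to 7.83) and 8.92 (5.78 to 13.2) CPM. In the GKO library, these classes held 29 and 58 UMIs, at 8.09 (5.42 to 11.6) and 11.4 (8.67 to 14.8) CPM. In the other 5 classes of both libraries, Nlrc5 had between 2 and 12 UMIs and 0.124 to 1.21 CPM. A UMI of Nlrc5 was found in 0.442% of WT insulin-led barcodes and in 9.01% of WT C1qa+ barcodes, although the insulin-led barcodes were the deeper, with medians of 37124 and 10514 UMIs.

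The ratio of heavy chain to light chain counts split the classes into separate ranges. Each UMI stands for 1 captured transcript, and genes may differ in how well their transcripts are captured and assigned. The ratios are therefore compared between classes and do not give the true transcript ratio within a class. In the WT library there were 10.5 (10.02 to 11.02) H2-K1 UMIs per B2m UMI in insulin-led, 7.71 (7.12 to 8.36) in Gcg-led, 12.5 (11.6 to 13.6) in Sst-led and 10.9 (9.98 to 11.9) in Ppy-led barcodes. There were 0.938 (0.910 to 0.967) in Plvap+, 0.978 (0.918 to 1.04) in Dcn+ and 0.900 (0.865 to 0.937) in C1qa+ barcodes. In the GKO library the hormone-led classes ranged from 6.66 to 10.8 and the nonendocrine classes from 0.747 to 1.01. H2-D1 gave 4.50 to 8.97 UMIs per B2m UMI in hormone-led classes and 0.837 to 1.17 in nonendocrine classes over both libraries. Over all barcodes the ratio of H2-K1 to B2m was 2.48 in the WT and 1.61 in the GKO library, and in barcodes with fewer than 500 genes it was 3.20 (2.17 to 4.82) and 1.68 (1.19 to 2.38), from 35 and 56 B2m UMIs. Without barcodes that held a second hormone or foreign markers, the insulin-led ratio was 14.9 in the WT and 15.2 in the GKO library. With the estimate of free RNA subtracted, which was largest for the Sst-led class, the Sst-led ratio of the GKO library went from 10.8 to 25.6. With a hormone minimum of 25%, the Ppy-led ratio of the WT library went to 18.2. The size of the hormone-led ratios thus depended on such choices, and the part of free RNA in them was not tested.

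**Figure D2:**
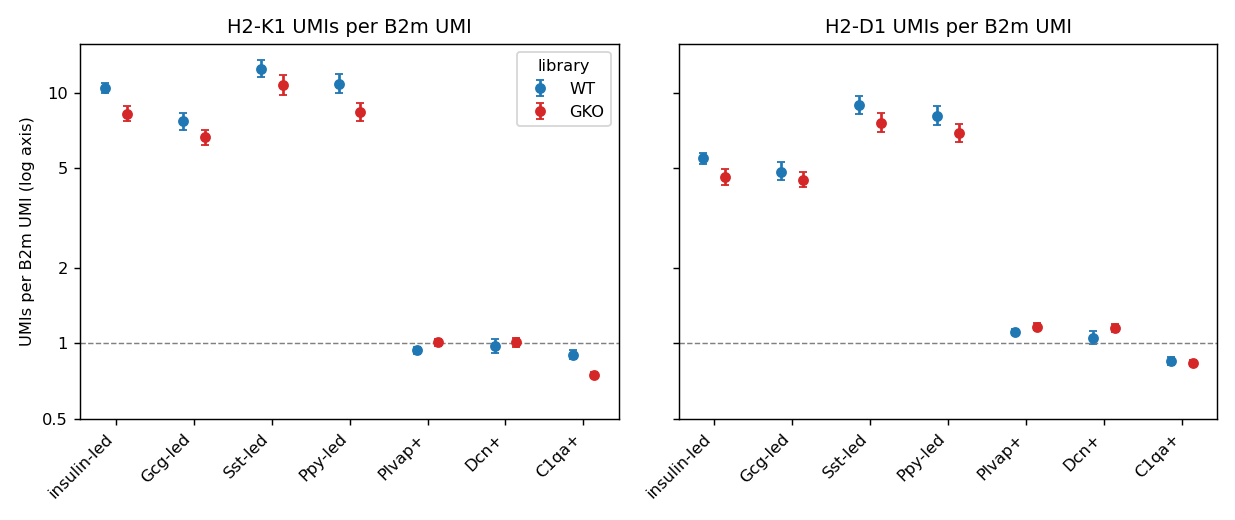
H2-K1 (left) and H2-D1 (right) UMIs per B2m UMI (log axis) by barcode class, WT in blue and GKO in red, with 95% counting intervals and a dashed line at equal counts. The 4 hormone-led classes lie at 4.50 or above and the 3 nonendocrine classes at 1.17 or below.

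Most hormone-led barcodes had no B2m UMI at all. In the WT library, 69.5% of insulin-led, 71.4% of Gcg-led, 71.4% of Sst-led and 69.5% of Ppy-led barcodes had 0, and in the GKO library 66.7% to 72.3%. H2-K1, by contrast, had a UMI in 99.0% of WT insulin-led barcodes. Thinned to 3000 UMIs a barcode, B2m was found in 5.21% and H2-K1 in 47.2% of WT insulin-led barcodes, against 98.6% and 96.8% of Plvap+ barcodes. Since nearly every cell type makes class I molecules, no class could serve as one that lacks the gene. Genes that hormone cells should lack give a scale instead. In WT insulin-led barcodes, 6 endothelial markers stood at 0.188% to 0.356% of their Plvap+ level, 5 stromal markers at 0.164% to 0.225% of their Dcn+ level, and C1qb, C1qc, Cx3cr1 and Csf1r at 0.188% to 0.286% of their C1qa+ level. C1qa alone stood higher, at 1.68%. B2m stood at 1.21% of its Plvap+ level, H2-K1 at 13.6% and H2-D1 at 5.98%. B2m of the pooled insulin-led class thus lay above these foreign markers other than C1qa, and both heavy chains lay above all of them. Each marker is scaled to a single class, whereas the nonendocrine classes all make B2m, so their carry-over would add up. WT insulin-led B2m was at 80.7, 38.3 and 8.38 CPM with insulin at 10 to 25%, 25 to 60% and at least 60% of UMIs. It was at 12.6 CPM in barcodes with 0 UMIs of Plvap, Dcn, C1qa and leukocyte genes. H2-K1 was at 468, 277, 177 and 184 CPM in these groups. The totals include insulin, so a larger insulin share by itself lowers the CPM of every other gene. How much B2m was carried over was not tested. In the GKO library the markers other than C1qa (1.83%) reached at most 0.535%, and B2m stood at 1.21%, H2-K1 at 9.87% and H2-D1 at 4.76%.

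In the hormone-led classes a few barcodes held a large share of the B2m, least so in the Sst-led class. Those with 5 or more B2m UMIs made up 3.22% of WT insulin-led barcodes and held 54.9% of the class's B2m UMIs. Their GKO counterparts made up 3.44% and held 61.2%. Such barcodes held 49.7% and 52.0% of the B2m UMIs in the Gcg-led class, 49.4% and 53.3% in the Ppy-led class, but 26.5% and 32.0% in the Sst-led class, where barcodes with 1 to 4 held the rest. At least 3 UMIs of Plvap, Dcn or C1qa were present in 84.9% of these WT barcodes and in 37.5% of those with 0 B2m UMIs. In the Gcg-led class the same shares were 70.8% and 8.16% in the WT and 71.9% and 7.23% in the GKO library. WT barcodes with 5 or more B2m UMIs were deeper than those with 0, with median UMIs of 45228 and 36230 in the insulin-led class. In the Gcg-led class these medians were 17695.5 and 11798.5. C1qa, which stood above the other foreign markers in insulin-led barcodes, was part of the criterion. The parts of depth and of C1qa were not tested. By this criterion, the barcodes rich in B2m were largely those that also carried markers of a nonendocrine cell. H2-K1 was higher in them as well, at 528 CPM in the insulin-led, 1025 in the Gcg-led, 1022 in the Sst-led and 800 in the Ppy-led class of the WT library. The groups were set by B2m counts, so they cannot show whether H2-K1 was less confined to such barcodes than B2m. In WT barcodes with 0 B2m UMIs, H2-K1 was at 201 CPM in the insulin-led and 333 in the Gcg-led class. There it was at 472 CPM in the Sst-led and 317 in the Ppy-led class.

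**Figure D3:**
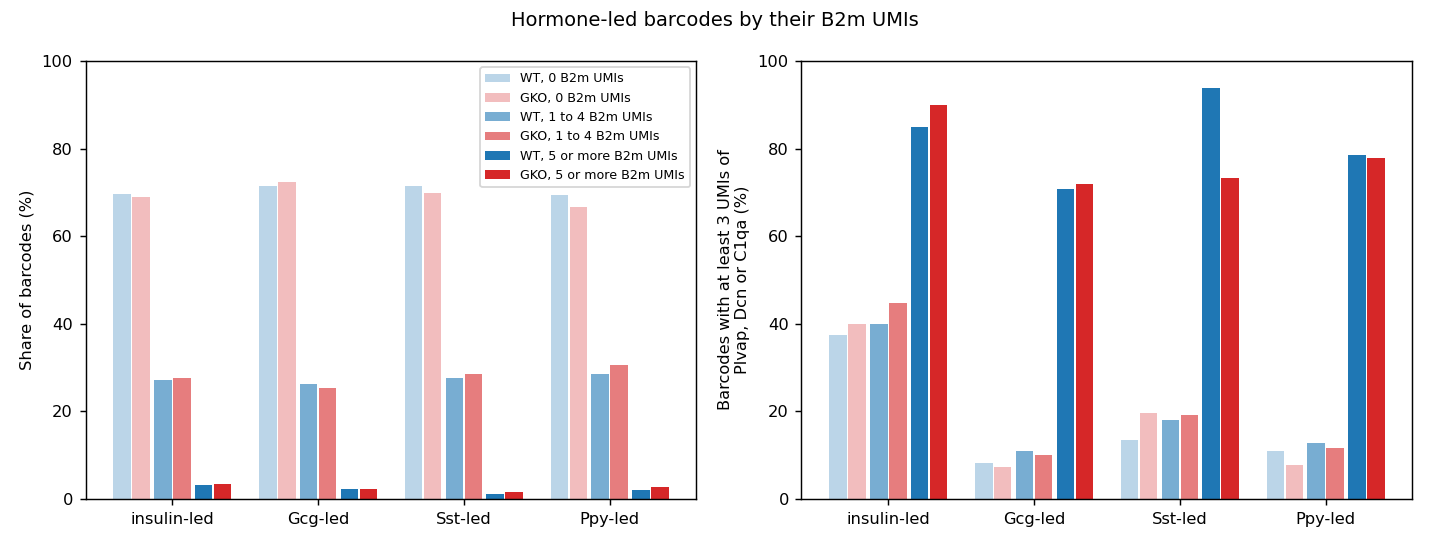
Hormone-led barcodes grouped by their B2m UMIs (paler to darker bars for 0, 1 to 4, and 5 or more), WT in blue and GKO in red. Left, the percentage of the class in each group; right, the percentage with at least 3 UMIs of Plvap, Dcn or C1qa, which is 70.8% or more in the group with 5 or more B2m UMIs.

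Between the libraries, the Plvap+ class stood apart in the number of members past a fixed fold. A gene was counted as higher or lower in GKO where its CPM ratio was at least 1.3-fold and the libraries together held at least 50 UMIs of it in the class. In Plvap+ barcodes, 5 of 7 members were higher and 0 lower, where 9.24% of 9435 genes were higher and 7.86% lower. Tap1 stood at 51.8 CPM in the WT and 99.3 CPM in the GKO library, and its log2 ratio was 0.94 (95% counting interval 0.70 to 1.17). Tap2 went from 124 to 182 CPM, a log2 ratio of 0.55 (0.39 to 0.71). H2-K1 went from 1615 to 2256 CPM, a log2 ratio of 0.48 (0.44 to 0.53), and H2-D1 from 1916 to 2606 CPM, a log2 ratio of 0.44 (0.40 to 0.49). Nlrc5 had a log2 ratio of 0.59, but its interval of -0.22 to 1.40 held 0. The 2 members short of the fold were also above 0. B2m had a log2 ratio of 0.37 (0.33 to 0.42), just under the 1.3-fold limit, and Tapbp one of 0.27 (0.16 to 0.37). The median over the 7 members was 0.48, and over all genes of the class it was 0.04. Intervals cover the counting of transcripts and not the difference between mice.

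The shift ran through the Plvap+ class as a whole. Per barcode, B2m, H2-K1 and H2-D1 together had a median of 5348 CPM in the WT and 6951 CPM in the GKO library. The 10th percentile lay at 3097 and 4112 CPM, and the 90th at 8196 and 11472 CPM. A higher GKO median of this sum was not particular to Plvap+ barcodes. It was at 1569 and 2073 CPM in Dcn+ and at 5026 and 6013 CPM in C1qa+ barcodes. In hormone-led classes the medians were 293 and 307 (insulin-led), 541 and 524 (Gcg-led), 823 and 878 (Sst-led) and 563 and 559 CPM (Ppy-led). Other transcripts moved along with these genes in the Plvap+ class. Leukocyte markers summed to 168 CPM in the WT and 417 in the GKO library (9 and 7 of 9 genes detected), class II genes to 282 and 685 CPM, acinar markers to 1260 and 298 CPM, and hormones took 1.06% and 0.686% of the UMIs. Of the leukocyte markers, Cd3e and S100a8 were at 0 in the GKO class. Cd74, the class II invariant chain, was counted in both the leukocyte and the class II list. It was at 131 and 368 CPM and made up most of the leukocyte sum in each library. In the 492 WT and 342 GKO Plvap+ barcodes without a Cd74 UMI, the ratios were as large, with log2 values of 0.38 for B2m, 0.48 for H2-K1, 0.43 for H2-D1, 1.00 for Tap1 and 0.55 for Tap2. Whether these transcripts had a part in the difference was not tested.

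**Figure D4:**
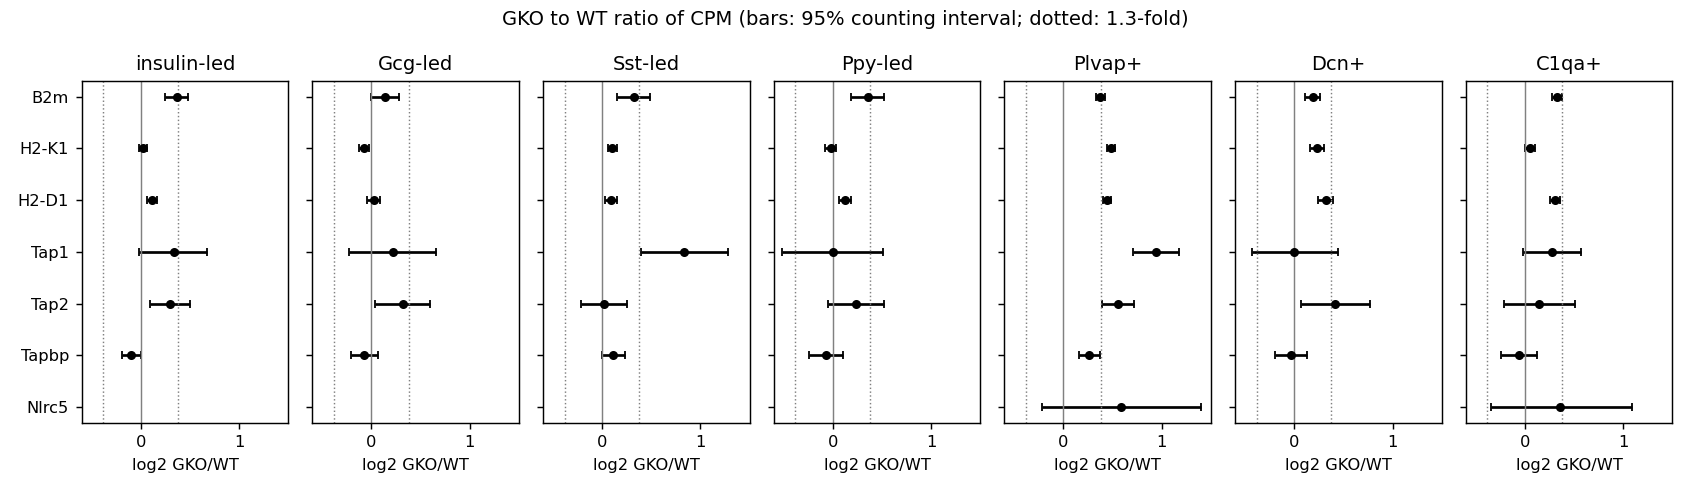
Log2 ratio of GKO to WT CPM for each member in the 7 named classes, with 95% counting intervals as bars and dotted lines at 1.3-fold; members with fewer than 50 UMIs in a class are not drawn. In Plvap+ barcodes 7 of 7 members lie above 0, and in Gcg-led barcodes the 6 drawn lie between -0.07 and 0.32.

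In Dcn+ barcodes, 1 of 6 members was higher, Tap2 with 36.7 and 48.8 CPM and a log2 ratio of 0.41 (0.07 to 0.77), where 18.3% of 9742 genes were higher and 9.05% lower. B2m (0.19), H2-K1 (0.23) and H2-D1 (0.32) were above 0 by less than the fold, and Tap1 (0.00) and Tapbp (-0.03) lay at 0. In C1qa+ barcodes, 0 of 7 members were past the fold, where 15.3% of 8916 genes were higher and 14.8% lower. B2m went from 1822 to 2285 CPM, a log2 ratio of 0.33 (0.28 to 0.37), H2-D1 from 1550 to 1913 CPM (0.30) and H2-K1 from 1641 to 1707 CPM (0.06). The C1qa+ values depended on the barcodes admitted. With at least 10 C1qa UMIs, B2m had a log2 ratio of 0.21 and H2-K1 one of -0.03, and with hormone content allowed up to 25%, B2m had one of 0.82. Just inside the limit, with 3 to 5 C1qa UMIs, lay 31 of 233 WT and 28 of 484 GKO barcodes, and just outside it, with 1 or 2, lay 89 and 102.

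In hormone-led classes few members were past the fold. In insulin-led barcodes there were 0 of 6, where 8.8% of 13047 genes were higher and 5.86% lower. H2-K1 was at 219 and 223 CPM, a log2 ratio of 0.02 (-0.02 to 0.06), and H2-D1 at 114 and 124 CPM, one of 0.12 (0.06 to 0.17). Tap2 had 0.30 (0.10 to 0.50), Tap1 0.33 (-0.01 to 0.67) and Tapbp -0.09 (-0.19 to 0.00). In Gcg-led barcodes 0 of 6 were past the fold (8.04% of genes higher, 5.96% lower), H2-K1 was slightly below 0 at -0.07 (-0.13 to -0.02), and Tap2 was above it at 0.32 (0.04 to 0.60). In Ppy-led barcodes 0 of 6 were past the fold (8.37% higher, 4.72% lower), with H2-D1 at 0.12 (0.06 to 0.18) and Tap2 at 0.24 (-0.04 to 0.52). Nlrc5 had too few UMIs to be counted in the 4 hormone-led classes. In Sst-led barcodes 1 of 6 was higher (6.54% of genes higher, 6.09% lower), Tap1 with 81 UMIs in the WT and 95 in the GKO library, at 4.85 and 8.65 CPM and a log2 ratio of 0.84 (0.39 to 1.28). Leukocyte markers, with the class II gene Cd74 among them, summed to 94.3 and 233 CPM in the Sst-led class (8 of 9 genes detected, Cd3e at 0). In the barcodes of that class with 0 UMIs of Plvap, Dcn, C1qa and leukocyte genes, Tap1 had a log2 ratio of 0.86, with an interval of -0.30 to 2.01.

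B2m leaned upward in each hormone-led class, with log2 ratios of 0.37 in insulin-led, 0.14 in Gcg-led, 0.32 in Sst-led and 0.35 in Ppy-led barcodes, but these values moved with the barcodes that were kept. Without barcodes that held a second hormone at 10% or at least 3 UMIs of Plvap, Dcn or C1qa, the insulin-led value was -0.09. The marker limit alone left out 898 of 2265 WT and 375 of 872 GKO insulin-led barcodes. The parts of C1qa and of depth in this were not tested. Without barcodes that held a leukocyte UMI, the Gcg-led value was -0.16, the Sst-led value 0.01 and the Ppy-led value 0.78. In insulin-led barcodes, leukocyte markers summed to 132 CPM in the WT and 233 CPM in the GKO library, with 9 of 9 genes detected in both. Class II genes summed to 147 and 281 CPM, and Cd74 was counted in both lists.

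The other genes of the pathway were described by fixed lists. Among 10 further heavy chain genes, 7 had enough UMIs in Plvap+ barcodes, and 7 of these were higher in GKO, where 9.24% of all genes were, with a median log2 ratio of 0.63. H2-T23, which encodes Qa-1, went from 349 to 542 CPM (0.63), H2-Q7 from 153 to 267 CPM (0.81) and H2-T22 from 99.9 to 154 CPM (0.63). In C1qa+ barcodes, 0 of 8 were higher and 2 lower (15.3% and 14.8% of all genes), and H2-Q7 went from 207 to 153 CPM (-0.44). H2-Q7 and H2-Q6 are close copies of each other, so reads may have been divided between them. H2-Q2 ran against the rest of the family by class. It was at 42.1 CPM in insulin-led, 84.1 in Gcg-led, 51.6 in Sst-led and 50.6 in Ppy-led WT barcodes, and at 2.99 CPM in the Plvap+ class, where it had 15 UMIs. In the GKO library the same classes had 43.1, 81.2, 51.0, 53.9 and 1.12 CPM. Of the 3 class I-like genes with enough UMIs in Plvap+ barcodes (Fcgrt, Mr1 and Cd1d1), 0 were past the fold (9.24% of all genes higher, 7.86% lower).

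The immunoproteasome exchanges 3 catalytic subunits of the standard proteasome and adds the PA28 regulator. In Plvap+ barcodes, 4 of its 5 genes were higher in GKO, where 9.24% of all genes were, with a median log2 ratio of 0.42. Of the 3 standard subunits (Psmb5, Psmb6 and Psmb7), 0 were higher, with a median of 0.12. Psmb8 went from 337 to 511 CPM (0.60), Psmb10 from 223 to 291 CPM (0.39) and the PA28 subunits Psme1 from 399 to 456 CPM (0.19) and Psme2 from 196 to 261 CPM (0.42). In Dcn+ barcodes 4 of 5 were also higher, where 18.3% of all genes were, and in C1qa+ barcodes 1 of 5, where 15.3% were. In Sst-led barcodes 3 of 5 were higher (6.54% of all genes), in insulin-led 1 (8.8%), and in Gcg-led and Ppy-led barcodes 0 (8.04% and 8.37%). Of the loading chaperones and peptidases, 1 of 5 was higher in the Plvap+ class (9.24% of all genes). Calr (0.14), Canx (0.03) and Pdia3 (-0.09), which serve glycoprotein folding in general, stayed under the fold, and Tapbpl, a tapasin relative, went from 46.6 to 67.8 CPM (0.54).

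Among 12 regulators and receptor genes of the interferon pathway, 3 were higher and 0 lower in Plvap+ barcodes (9.24% and 7.86% of all genes). Of the 12, 10 had a log2 ratio above 0, and the median was 0.10. The 3 higher genes are not among those named next. The transcription factors Irf1 (0.03) and Irf2 (0.07) stayed under the fold. Ifngr1, a chain of the interferon-γ receptor, went from 200 to 252 CPM (0.33) and also stayed under the fold. Among 15 interferon-induced genes, 13 were higher in Plvap+ barcodes (9.24% of all genes), with a median log2 ratio of 0.68. Gbp7, a guanylate-binding protein, went from 168 to 269 CPM (0.68), Isg15, a ubiquitin-like modifier, from 145 to 216 CPM (0.57) and Bst2, a membrane protein that tethers virions, from 452 to 593 CPM (0.39). The chemokine Cxcl10 was at 8.17 and 8.37 CPM there. In Dcn+ barcodes 10 of 15 were higher and 1 lower (18.3% and 9.05% of all genes), the latter Cxcl10 with 139 and 63.9 CPM. In C1qa+ barcodes 7 were higher and 4 lower (15.3% and 14.8% of all genes). Cxcl10 was at 1343 and 805 CPM in that class (-0.74) and Isg15 at 510 and 292 CPM (-0.80). Of the genes with enough UMIs, 3 of 12 were higher and 3 lower in insulin-led barcodes (8.8% and 5.86% of all genes). In Gcg-led barcodes 7 of 11 were higher and 0 lower (8.04% and 5.96% of all genes). In Sst-led barcodes 5 of 10 were higher and 1 lower (6.54% and 6.09%), and in Ppy-led barcodes 5 of 10 and 0 (8.37% and 4.72%). The levels in hormone-led barcodes were low, and Bst2, for example, went from 7.68 to 9.17 CPM in insulin-led barcodes.

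**Figure D5:**
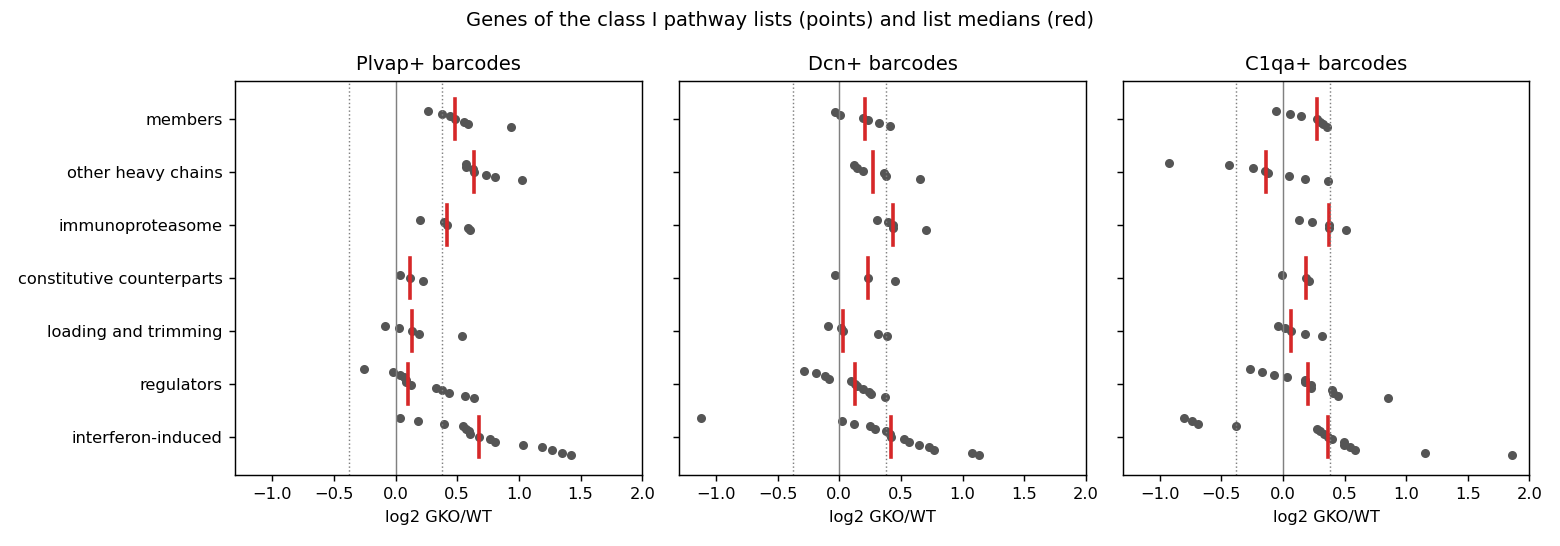
Log2 ratio of GKO to WT CPM of the genes of each list (points, genes with at least 50 UMIs in the class) and list medians (red bars) in the 3 nonendocrine classes, with dotted lines at 1.3-fold. In Plvap+ barcodes the interferon-induced median is 0.68 and that of the standard proteasome subunits 0.12. In C1qa+ barcodes 4 interferon-induced genes lie below the lower line, as do 14.8% of all genes.

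The profile most like that of B2m over the 7 classes in both libraries (14 points that share 2 libraries), by Pearson's r of log2(CPM + 1) among 5404 genes with at least 50 CPM in 1 of them, was that of Fxyd5 (0.995), followed by Ppp1r18 (0.995), Lipa (0.994), Bst2 (0.994) and Rcsd1 (0.993). Among the members, Tap1 came nearest to B2m (0.984), ahead of H2-D1 (0.967), H2-K1 (0.959), Tapbp (0.894) and Tap2 (0.868).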

How the data were processed

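The deposited UMI counts (1 matrix per genotype) were made by the authors with Cell Ranger 5.0.1 and STAR against mm10, per the file headers and the submitters' processing notes; the study's methods state that reads were down-sampled between samples where needed. These are the values before the authors removed free RNA with CellBender. The members, gene lists and classes were chosen with earlier results of these data known. Counts were summed by class and library. Levels are CPM with exact Poisson intervals, and ratios have exact conditional binomial intervals, at 95%. No test was possible, since each genotype had 1 library. The intervals were tried on simulated Poisson counts, which hold no spread between cells, mice or libraries, so that trial bears on counting error only. No doublet caller was run, and alternatives instead left out barcodes with a second hormone or foreign markers. All 7 members were measured in each class, and named were, of each list, at most the 4 genes with the most UMIs, further genes being named only where few of a list were left or where they were noticed after their values were seen. The lists were other heavy chains, class I-like genes, loading and trimming, immunoproteasome, constitutive counterparts, regulators and interferon-induced genes, with marker lists for cell types. Software was Python 3.11.15, numpy 2.4.6, scipy 1.17.1 and, for TMM factors, edgeR 4.0.16. The tried alternatives were 14 for levels and ratios and 16 for counts of members.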

Additional observations from a re-analysis of the deposited data

Results flagged for a closer look

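Some interferon-induced genes moved past 1.3-fold in opposite directions in 2 classes, with counting intervals on either side of 0, and the difference between the classes was not tested. Isg15 had a log2 ratio of GKO to WT of 0.57 in Plvap+ barcodes and -0.80 in C1qa+ barcodes. Irf7, a transcription factor of the interferon response, had 0.55 in Plvap+ and -0.38 in C1qa+ barcodes. Ifit1 had 1.13 in Dcn+ and -0.69 in C1qa+ barcodes. Cxcl10 had 0.95 in Gcg-led barcodes, from 44 and 110 UMIs, and -1.12 in Dcn+ barcodes. It was far higher in C1qa+ barcodes. In Gcg-led barcodes, macrophage markers stood at 0.231% to 2.22% (WT) and 0.422% to 1.63% (GKO) of their C1qa+ level. How much of the Gcg-led Cxcl10 was carried over was not tested. Irf7 and Ifit1 were named after their values were seen. No member of the class I set had such a pair of classes.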

How the results depend on the processing

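No paired analysis was possible because each genotype had 1 library, and no replicate could be left out. The share of all genes past the fold is given for the main setting only (1.3-fold, at least 50 UMIs). The counts of members under alternatives stand without it and cannot be set against a background. In Plvap+ barcodes, each member's log2 ratio was above 0 in 14 of 14 alternatives, with ranges of 0.34 to 0.41 for B2m, 0.45 to 0.52 for H2-K1, 0.41 to 0.47 for H2-D1, 0.85 to 1.01 for Tap1, 0.47 to 0.58 for Tap2, 0.18 to 0.29 for Tapbp and 0.54 to 1.55 for Nlrc5. All alternatives used the same 2 libraries, and leaving out mixed hormone-led barcodes could not change the Plvap+ class. The 5 members past 1.3-fold in that class became 2 past 1.5-fold, Tap1 (1.92-fold) and Nlrc5 (1.503-fold). The interval of Nlrc5 held 0. The count there was 4 when thinned or with at least 200 UMIs, a minimum that Nlrc5 missed, and 6 with the 25% hormone minimum, at least 10 marker UMIs, without the top 5% or as a mean over barcodes. In the other classes the counts of higher members were small and moved. In insulin-led barcodes 0 became 1 with mitochondrial UMIs up to 20%, without leukocyte UMIs or thinned to 3000 UMIs, and 2 without the top 5% by UMIs or as a mean over barcodes. In Gcg-led barcodes 0 became 2 with a hormone minimum of 25% and 1 when thinned. In Sst-led barcodes 1 became 2 without mixed barcodes and 0 without leukocyte UMIs, when thinned or with at least 200 UMIs. In Ppy-led barcodes 0 became 1 with the 20% or 25% limits, without mixed barcodes, without leukocyte UMIs or without the top 5%. In Dcn+ barcodes 1 became 0 with at least 10 marker UMIs, without ribosomal and mitochondrial genes, with TMM factors or at 1.5-fold, and 3 without the top 5%. In C1qa+ barcodes 0 became 1 with the 20% limit or TMM, 2 without the top 5%, 3 as a mean over barcodes and 4 with the 25% hormone minimum. Lower members went from 0 to 1 in insulin-led and Gcg-led barcodes when thinned, and in Sst-led barcodes with free RNA subtracted, where the B2m ratio was -0.52. The causes were not tested. Of 677 log2 ratios under alternatives, 613 stayed inside the counting interval of the reported ratio. Nlrc5 had fewer than 50 UMIs over both libraries in 5 classes and was not counted there.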

Other observations

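The barcodes left unnamed, 578 in the WT and 809 in the GKO library, held B2m at 773 and 909 CPM, H2-K1 at 1193 and 1193 CPM and Tap1 at 58.3 and 62.6 CPM. Their acinar markers summed to 32295 CPM in the WT and 5128 CPM in the GKO library and their leukocyte markers to 4493 and 6828 CPM, so their makeup differed between the libraries. Fcgrt, which encodes the neonatal Fc receptor heavy chain that also pairs with B2m, was at 111 and 179 CPM in C1qa+ barcodes, a log2 ratio of 0.69 (0.50 to 0.88).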
